A study of Bos taurus with 6 samples.

Results

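The genes described here are 8 genes of calcium-activated potassium channels, of 23475 genes with an FPKM row. They are KCNMA1, the beta subunit genes KCNMB1, KCNMB2, KCNMB3 and KCNMB4, the gamma subunit gene LRRC26, and the smaller-conductance channel genes KCNN2 and KCNN4. KCNMB3 was selected on these same libraries, because its rise in FPKM with the bta-miR-484 agomir was among the largest. The other 7 were chosen by name, as subunits of the same channel or as its relatives. Because its FPKM values chose it, the difference of KCNMB3 between the groups is given as a description without a test.

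RNA sequencing compared bovine cells from subcutaneous fat at 48 h after transfection, 3 samples with the bta-miR-484 agomir and 3 with the agomir NC. An agomir is a chemically modified RNA that acts as the mature miRNA, and the agomir NC is its negative control. All samples were grown in high-glucose DMEM with fetal bovine serum. The tissue came from calves, but it is not stated if a group's samples are separate calves or separate cultures, so p-values measure only the spread between these samples.

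The channel of large conductance, called BK, opens when calcium inside the cell rises and the membrane depolarises, and lets potassium out. KCNMA1 encodes its pore, while the beta subunits and the leucine-rich repeat gamma subunits set how easily it opens and how fast it closes. The KCNN genes encode channels of smaller conductance that sense calcium through bound calmodulin, and calcium-activated potassium currents have been recorded from cultured preadipocytes.

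The labels call the cells adipocytes, and the study uses both that word and preadipocytes for them. Of 7 preadipocyte markers, COL1A1 was the most abundant and lay between 5473 and 6364 FPKM in the 6 libraries. PDGFRA lay between 162 and 172 FPKM and PDGFRB between 125 and 143 FPKM, but DLK1 was listed at 0 in all 6. The adipocyte markers ADIPOQ, LEP and CIDEC did not exceed 0.197, 0.0368 and 0.230 FPKM, and the 7 adipocyte markers together summed to between 10.6 and 11.9 FPKM. The libraries therefore had high levels of the precursor markers other than DLK1, and the markers of the fat-storing adipocyte were low or near 0.

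KCNMB3 encodes a beta subunit, of which some splice forms inactivate the channel. Its FPKM was 0.548, 0.734 and 0.985 in the 3 agomir libraries, against 0.279, 0.405 and 0.282 FPKM in the 3 agomir NC libraries. The lowest agomir library was above the highest agomir NC library, and the agomir libraries were also the more spread out. Groups that do not overlap, with the agomir higher, were seen in 1351 of the 12422 genes tested (10.9%), and for a gene selected by its rise this separation carries no further weight. The agomir mean of 0.756 ± 0.219 FPKM was 2.35 times the agomir NC mean of 0.322 ± 0.0720 FPKM (SD, n = 3 each). On the scale of log2(FPKM + 0.5), where 0.5 is a pseudocount, the difference was 0.60 (standard error 0.17 from limma), which understates the ratio of a gene this low. In bulk RNA, more cells with this transcript and more transcript in each cell cannot be told apart.

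KCNMB3 had little room above the filter. Testing required a mean over the 6 libraries of 0.5 FPKM or more, and its mean was 0.539 FPKM. The agomir NC mean alone was below 0.5, so the gene entered the fit only through the agomir libraries. Of the 12422 genes tested, 110 had a lower mean. Among the 593 tested genes with a mean under 0.75 FPKM, the median size of the log2 difference was 0.14, against 0.08 over all genes tested. The median standard error was 0.18 in the former and 0.08 over all, so low genes as a class had larger differences, in either direction, and larger errors. The number of reads behind each FPKM value is unknown, and the counting error of such low values with it.

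In order of the log2 difference, KCNMB3 was number 22 of the 12422 genes. The gene just above it was LCORL, with 3.06, 3.17 and 3.46 FPKM in the agomir libraries and 1.37, 2.30 and 2.31 FPKM in the agomir NC libraries, a difference of 0.604 against 0.600 for KCNMB3. The gene just below it was AKAP12, with 16.1, 16.6 and 16.5 FPKM against 12.9, 10.1 and 9.56 FPKM, a difference of 0.585. Both neighbours in this order had higher FPKM than KCNMB3. In both the groups did not overlap, as in 10.9% of all genes tested, and both are named here for their rise. A fold of 1.5 is a log2 difference of 0.585, which KCNMB3 and AKAP12 reached. APOA1, the next in the order, had overlapping groups and missed that line at 0.582. KCNMB3 was under that line with a pseudocount of 1 (0.40), with a trend with gene span removed (0.582), and without agomir replicate 3 (0.47), agomir NC replicate 1 (0.563) or agomir NC replicate 3 (0.566). With an unadjusted p under 0.05 in limma and a fold of at least 1.5, 18 genes were higher with the agomir (0.145% of those tested) and 16 were lower (0.129%).

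The annotation around KCNMB3 limits what its value can mean. In the RefSeq table KCNMB3 overlaps PIK3CA, the catalytic subunit gene of a phosphoinositide kinase, and a pseudogene, LOC782455, that has no row of its own among the FPKM values used here. The strand setting of the libraries is not given in the sources used here, so reads from the shared stretch may have been assigned to either gene. PIK3CA was listed at 8.52, 8.45 and 8.47 FPKM with the agomir, against 9.35, 7.78 and 8.43 FPKM with the agomir NC. Its groups overlapped and its log2 difference was -0.0025 (standard error 0.077, adjusted p = 0.994 from limma). PIK3CA was thus by far the more abundant of the pair, and its libraries were not ordered as those of KCNMB3. Without agomir NC replicate 1 the log2 difference of PIK3CA was 0.06. How reads of the shared stretch were assigned was not tested.

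The other genes next to KCNMB3 were MFN1 and ZNF639 on one side and ZMAT3 beyond PIK3CA on the other. MFN1, a gene of mitochondrial fusion, lay between 18.5 and 20.6 FPKM with overlapping groups. ZNF639, a zinc finger gene, was listed at 6.10, 6.79 and 6.77 FPKM against 5.93, 5.88 and 5.72 FPKM, with a log2 difference of 0.15 (adjusted p = 0.505 from limma). ZMAT3, which encodes an RNA-binding zinc finger protein, was listed at 23.5, 24.8 and 22.3 FPKM against 21.0, 21.4 and 21.4 FPKM, with a log2 difference of 0.14 (adjusted p = 0.399 from limma). In ZNF639 and ZMAT3 every agomir library was above every agomir NC library, as in 10.9% of all genes tested. Neither passed an adjusted p of 0.05. KCNMB2 lies further along the same chromosome and was listed at 0 in all 6 libraries.

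The study reports that real-time PCR bore out its RNA sequencing results. The primers listed for that check include a pair for KCNMB3, whose own PCR result is not stated in the study's text. The primer pair is shown because it defines the stretch of transcript by which the gene was followed outside the sequencing. The forward primer has 19 bases, of which 8 are G or C, and the reverse primer has 18 bases, of which 10 are G or C.
KCNMB3 forward primer: ttctcggtcctaatgttct
KCNMB3 reverse primer: acagtccgtccagtcatc

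KCNMA1, the gene of the pore, was the most abundant of the 8 genes. It was listed at 4.72, 4.55 and 4.47 FPKM with the agomir, against 4.29, 4.33 and 4.21 FPKM with the agomir NC. Every agomir library was above every agomir NC library, by a narrow margin, since the lowest of the former was at 4.47 and the highest of the latter at 4.33 FPKM. The agomir mean of 4.58 ± 0.127 FPKM was 1.07 times the agomir NC mean of 4.28 ± 0.0586 FPKM (SD, n = 3 each). The log2 difference was 0.09 (standard error 0.077, 95% confidence interval -0.08 to 0.26, adjusted p = 0.719 from limma), so a difference from 0 was not detected. The upper end of that interval lies under the log2 value of a fold of 1.5. Of all genes tested, 1 passed an adjusted p of 0.05 (0.00805%), and it was none of the 8. KCNMA1 was the only other of the 8 above the filter, and it was not under an unadjusted p of 0.05 in limma either.

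The remaining beta subunit genes were low. KCNMB4, known as the beta subunit of the brain, was listed at 0.131, 0.178 and 0.324 FPKM with the agomir, against 0.1002, 0.230 and 0.206 FPKM with the agomir NC. Its groups overlapped, and the highest and the lowest library belonged to different groups. KCNMB1, the beta subunit of smooth muscle, was listed at 0.0491 FPKM in agomir replicate 2, at 0.0401 FPKM in agomir NC replicate 3 and at 0 in the other 4 libraries. KCNMB2, an inactivating beta subunit, was listed at 0 throughout. None of these 3 genes reached the mean of 0.5 FPKM, so they were not tested.

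FPKM is scaled by transcript length, so the subunit levels of a library can be set side by side. KCNMB3 made up 80.7%, 76.3% and 75.3% of the summed FPKM of the beta subunit genes in the agomir libraries, and 73.6%, 63.8% and 53.4% in the agomir NC libraries. It was listed as the highest beta subunit gene in every library of both groups, but its values may hold reads from the stretch shared with PIK3CA. The mean shares with the agomir and the agomir NC were 77.4 ± 2.88% and 63.6 ± 10.1% (SD, n = 3 each), a difference of 13.8 percentage points, or 8.74 without agomir NC replicate 3. This share contains the FPKM that chose the gene and is not tested. The agomir NC libraries were the more spread out here, and their highest share was only just under the lowest of the agomir libraries.

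Set against the pore gene, the beta subunits stayed the minor part. The summed FPKM of the beta subunit genes was 14.4%, 21.1% and 29.3% of that of KCNMA1 in the agomir libraries and 8.84%, 14.7% and 12.5% in the agomir NC libraries. These groups overlapped, because agomir replicate 1 lay just under agomir NC replicate 2. For KCNMB3 alone the percentages of KCNMA1 were 11.6, 16.1 and 22.0 against 6.50, 9.37 and 6.69. These did not overlap, which carries no further weight for a gene selected by its rise. Both sets of percentages contain the FPKM that chose KCNMB3 and are not tested. How many channels carry a beta subunit was not measured, since FPKM describes RNA.

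LRRC26, the gamma subunit gene best known from secretory epithelium, was listed at 0.0933 FPKM in agomir replicate 2, at 0.0473 and 0.102 FPKM in agomir NC replicates 1 and 2, and at 0 in the other 3 libraries. Among the other gamma subunit genes, LRRC55 was higher, with 0.960, 1.07 and 0.884 FPKM in the agomir libraries and 0.905, 0.853 and 0.987 FPKM in the agomir NC libraries. Its groups overlapped, with a log2 difference of 0.05 (standard error 0.13, adjusted p = 0.914 from limma). LRRC38 did not exceed 0.104 FPKM and LRRC52 was listed at 0 in all 6 libraries. LRRC55 was thus the highest of the 4 gamma subunit genes in every library, and in the agomir and agomir NC groups its FPKM was 21.2 ± 1.97% and 21.4 ± 1.88% of that of KCNMA1 (SD, n = 3 each).

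The genes of the smaller-conductance channels were near the bottom of the scale. KCNN4, the intermediate-conductance channel of blood cells and epithelia, was listed at 0.131, 0.101 and 0.0396 FPKM with the agomir, against 0.0930, 0.0955 and 0.0905 FPKM with the agomir NC. The agomir NC libraries were close together and lay inside the range of the agomir libraries. KCNN2, a small-conductance channel of nerve and heart cells, was listed at 0 in all 6. Of its relatives, KCNN1 lay between 0.0235 and 0.241 FPKM with overlapping groups, and KCNN3 was listed at 0.0169 FPKM in agomir replicate 1 and at 0 elsewhere. KCNN4 and KCNN2 were left out of the test by the filter, and with KCNMB1, KCNMB2, KCNMB4 and LRRC26 they make up the 6 of 8 genes under it.

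**Figure D1:**
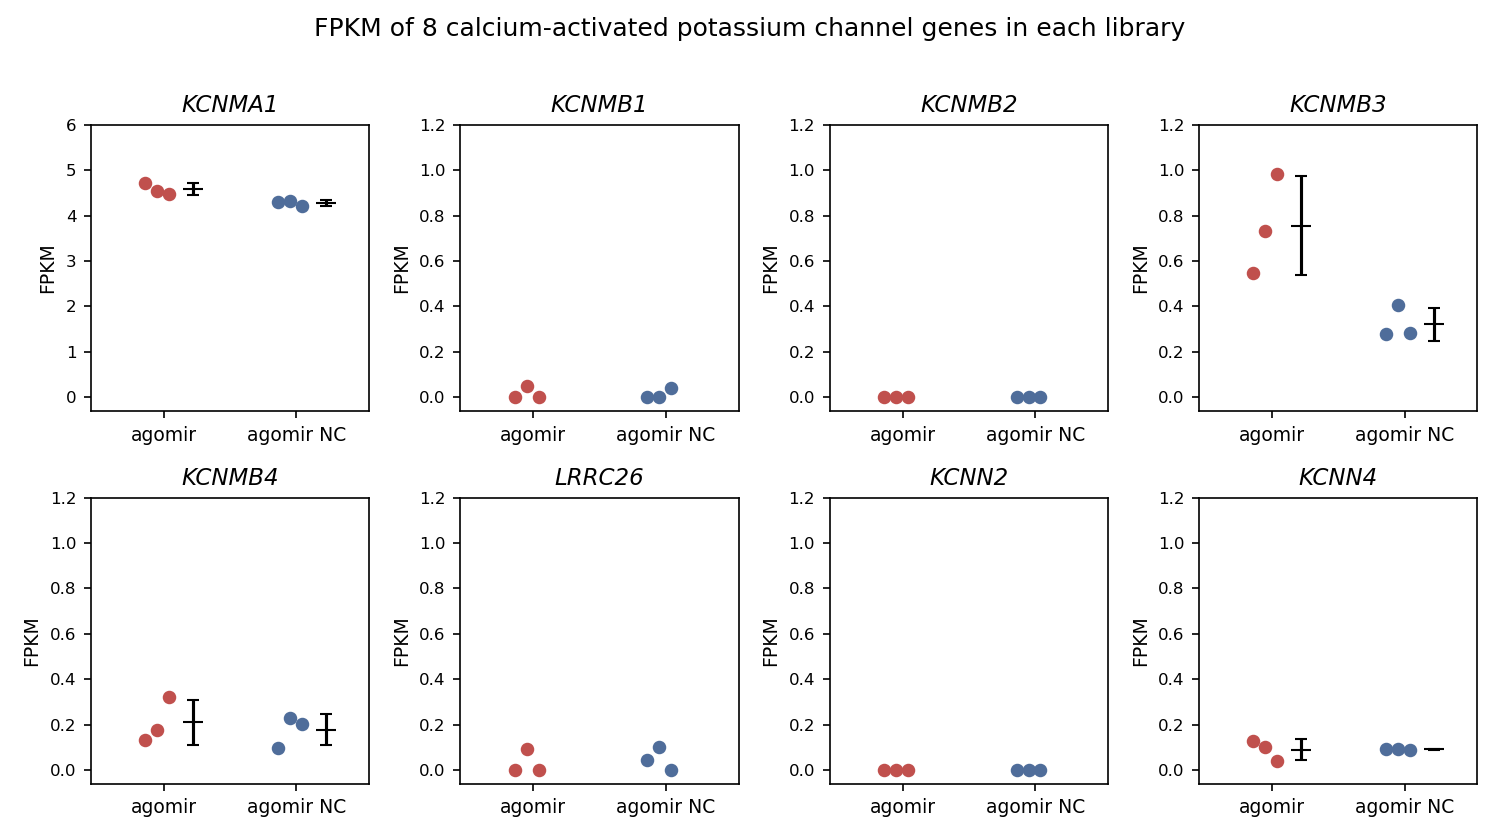
FPKM (vertical axis) of each of the 8 genes in the 3 agomir and the 3 agomir NC libraries. Points are libraries, crossbars are the mean and SD of a group (drawn only for genes with no library at 0), and the axis of KCNMA1 has its own scale. KCNMB3 lies between 0.548 and 0.985 FPKM with the agomir and between 0.279 and 0.405 FPKM with the agomir NC, and KCNMB2 and KCNN2 are at 0 in all libraries.

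The pore gene has other relatives. KCNT2, a sodium-activated potassium channel of the same Slo family, was as abundant as KCNMA1, with 4.41, 5.35 and 4.50 FPKM in the agomir libraries and 4.53, 4.37 and 4.50 FPKM in the agomir NC libraries. The groups overlapped, and agomir replicate 2 stood above the other 5 libraries. Its log2 difference of 0.08 (standard error 0.091, adjusted p = 0.806 from limma) was -0.0043 without that library. KCNT1 did not exceed 0.00923 FPKM, and KCNU1, the Slo channel of sperm, was listed at 0 in all 6 libraries.

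Across all genes whose symbol begins with KCN, most were listed at or near 0 in these cells. Of 95 such genes, 38 were listed at 0 in all 6 libraries, 43 were above 0 in some library with a mean under 0.5 FPKM, and 14 were tested. Leaving out KCNMB3, 11 of the other 13 had a log2 difference above 0 and 2 had one below 0, and these numbers were the same under median-ratio scaling and quantile normalization. They moved with single libraries, to 9 and 4 without agomir replicate 1, to 10 and 3 without agomir NC replicate 1 or 2, and to 12 and 1 without agomir replicate 3. Array weights also gave 12 and 1. The median difference of the 13 was 0.08, against 0.01 over all genes tested, of which 55.1% were above 0. With limma, none of the 13 passed an adjusted p of 0.05 and none passed both the unadjusted p of 0.05 and the fold of 1.5. At an unadjusted p under 0.05 alone, 1 of the 13 was higher and 0 were lower, where 6.63% and 4.31% of all genes tested were higher and lower. The groups did not overlap, with the agomir higher, in 2 of the 13, KCNK12 and KCNMA1, beside 10.9% of all genes tested.

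KCNK12, which encodes a tandem pore domain potassium channel subunit, was the most abundant potassium channel gene. It was listed at 22.1, 21.3 and 21.2 FPKM with the agomir, against 19.1, 18.9 and 17.2 FPKM with the agomir NC. All 3 agomir libraries were above all 3 agomir NC libraries. The log2 difference was 0.22 (standard error 0.059, adjusted p = 0.294 from limma), so KCNK12 did not pass the adjusted threshold.

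Below KCNK12 came KCNG1, a modifier subunit of voltage-gated channels, between 6.302 and 8.88 FPKM, and KCNE4, an accessory subunit, between 4.702 and 5.84 FPKM. KCNT2 and KCNMA1 followed. KCNG1, KCNE4 and KCNT2 overlapped between the groups, and their adjusted p-values in limma were 0.708, 0.923 and 0.806. KCNMA1 was thus the fifth of the 95 by mean FPKM, at 4.43 FPKM over the 6 libraries, against 20.0 FPKM for KCNK12. Among the tested potassium channel genes KCNMB3 had the lowest mean.

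Among the 13 tested genes, the largest difference below 0 was that of KCNAB2, a cytosolic subunit of voltage-gated channels. It was listed at 0.489, 0.720 and 0.518 FPKM with the agomir, against 0.715, 0.848 and 0.824 FPKM with the agomir NC. Its groups overlapped by a small margin, and the log2 difference was -0.27 (standard error 0.15, adjusted p = 0.540 from limma). Under the filter, KCNJ8 had a larger one (log2 difference -0.38, groups overlapping, not tested). KCNAB1, a relative of KCNAB2, was also under the filter and was listed at 0.238, 0.487 and 0.447 FPKM against 0.569, 0.571 and 0.493 FPKM. All agomir libraries of KCNAB1 were below all agomir NC libraries, a pattern that 6.36% of the genes tested showed. These 3 genes were picked out after their values were seen.

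**Figure D2:**
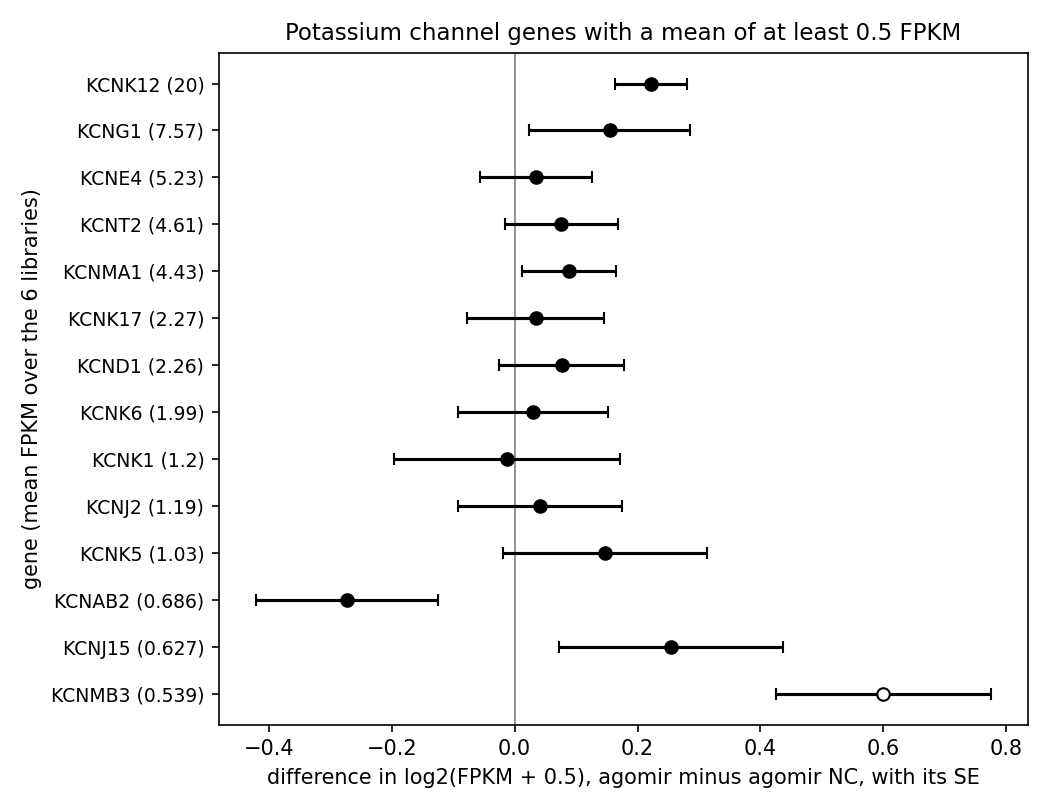
Difference in log2(FPKM + 0.5) between agomir and agomir NC (horizontal axis, bars are the standard error from limma, 3 libraries a group) for the 14 potassium channel genes whose mean was 0.5 FPKM or more, ordered by that mean, which is given beside each symbol. The open point is KCNMB3, chosen for its rise, at 0.60, and the other 13 genes lie between -0.27 and 0.25.

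BK and KCNN channels answer to calcium inside the cell, so genes of calcium entry, release and removal were read beside them. Of 52 such genes, 7 were listed at 0 in all libraries and 27 were tested, of which 15 had a log2 difference above 0 and 12 below 0, with a median of 0.03. Median-ratio scaling made these numbers 14 and 13, while leaving out agomir NC replicate 2 made them 20 and 7 and leaving out agomir replicate 1 made them 18 and 9. None passed an adjusted p of 0.05 in limma, none passed both the unadjusted p and the fold, and 1 was at an unadjusted p under 0.05, beside 6.63% higher and 4.31% lower of all genes tested. That gene was ITPR1, which encodes a receptor channel that releases calcium from the endoplasmic reticulum, with 8.89, 10.4 and 10.1 FPKM in the agomir libraries and 8.76, 8.64 and 8.03 FPKM in the agomir NC libraries. Its groups did not overlap, although agomir replicate 1 was close to the agomir NC libraries, and its log2 difference was 0.19 (standard error 0.077, adjusted p = 0.406 from limma).

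The calcium genes with the highest FPKM were a pair of calcium pumps and a stretch-activated channel. ATP2B4, of the plasma membrane, lay between 44.7 and 53.04 FPKM, ATP2A2, of the endoplasmic reticulum, between 39.6 and 43.2 FPKM, and PIEZO1 between 30.8 and 34.2 FPKM. ATP2A2 was higher in all agomir libraries than in all agomir NC libraries, with an adjusted p of 0.518 in limma, and the other 2 overlapped. SLC8A1, a sodium-calcium exchanger gene named after its values were seen, went the other way without overlap, at 0.615, 0.591 and 0.538 FPKM against 0.688, 0.808 and 0.853 FPKM (log2 difference -0.25, adjusted p = 0.557 from limma). Of the 27 tested, 2 were thus higher and 1 lower without overlap, beside 10.9% and 6.36% of all genes tested.

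Of 14 genes whose products bind or modify these channels, 13 were tested, and the log2 difference was above 0 in 7 and below 0 in 6, with a median of 0.05, where 55.1% of all genes tested were above 0. Without agomir NC replicate 2, agomir replicate 2 or agomir replicate 3 these numbers were 6 and 7, with a median below 0. CAV1, the gene of a membrane scaffold protein, lay between 220 and 254 FPKM, and CALM2 between 80.03 and 124 FPKM, both with overlapping groups. CALM3, which like CALM2 encodes calmodulin, was listed at 67.5, 66.1 and 56.9 FPKM with the agomir, against 71.02, 72.1 and 68.1 FPKM with the agomir NC. Its agomir libraries were all below its agomir NC libraries, with a log2 difference of -0.15 (standard error 0.065, adjusted p = 0.440 from limma), and no other regulator was at an unadjusted p under 0.05 or without overlap, beside 4.31% and 6.36% of all genes tested that were lower by these rules. Without agomir replicate 3, the lowest library, the difference of CALM3 was -0.07 (adjusted p = 0.703 from limma, and between 0.402 and 0.703 over the alternatives).

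KCNMB1 and KCNMA1 are also genes of smooth muscle, so markers of that cell type were read beside them. The 8 smooth muscle markers summed to 529, 531 and 518 FPKM in the agomir libraries and to 560, 508 and 546 FPKM in the agomir NC libraries, with TAGLN the most abundant. ACTA2 lay between 196 and 220 FPKM, while MYH11, the marker of mature smooth muscle, did not exceed 0.433 FPKM and RGS5 was listed at 0 in 5 of 6 libraries. The sums overlapped between the groups, and their part in the values of KCNMB3 was not tested. Markers of other cells were lower. The endothelial markers summed to at most 3.97 FPKM, nearly all VWF, the leukocyte markers to at most 7.75 FPKM, mostly CD14, and those of neurons and glia to at most 4.91 FPKM, nearly all S100B, with RBFOX3 listed at 0 throughout.

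Some markers, picked out after their values were seen, stood apart between the groups. NT5E, a preadipocyte marker, was listed at 71.7, 70.6 and 77.5 FPKM with the agomir, against 83.1, 89.2 and 89.4 FPKM with the agomir NC. Its groups did not overlap, and its log2 difference was -0.25 (standard error 0.051, adjusted p = 0.209 from limma). SMTN, of the smooth muscle list, was listed at 22.0, 21.2 and 21.5 FPKM against 23.1, 23.9 and 23.4 FPKM, also without overlap, with a log2 difference of -0.12 (adjusted p = 0.413 from limma). Others of these lists differed less or the other way. ENG, a preadipocyte marker, had a log2 difference of -0.08 without overlap, and the smooth muscle markers LMOD1 and CNN1 had 0.20 and 0.13 with overlap (adjusted p = 0.521, 0.467 and 0.760 from limma). Of the adipocyte markers, PPARG was higher in all agomir libraries (log2 difference 0.23, adjusted p = 0.407 from limma), and FABP4 was lower with overlapping groups (log2 difference -0.49, adjusted p = 0.363 from limma). Without overlap, 2 of 6 tested preadipocyte markers and 1 of 5 tested smooth muscle markers were lower, and 1 of 4 tested adipocyte markers was higher. Over all genes tested, 6.36% were lower and 10.9% higher without overlap. The sum of the 7 preadipocyte markers, which COL1A1 dominates, was 6624, 6840 and 6304 FPKM against 5954, 6729 and 6390 FPKM, and overlapped. The part of these markers in the values of KCNMB3 was likewise not tested.

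The genes most like KCNMB3 over the 6 libraries, by the Pearson correlation of log2(FPKM + 0.5), were MPP5 (0.990), MAP4K5 (0.984), DPY19L1 (0.984), KRIT1 (0.980) and ZDHHC23 (0.979). MPP5, a scaffold gene of cell polarity, stood at 8.15, 8.58 and 9.16 FPKM in the agomir libraries, against 7.48, 7.57 and 7.34 FPKM in the agomir NC libraries. ZDHHC23, a palmitoyltransferase gene, was listed at 1.89, 2.43 and 2.54 FPKM against 1.24, 1.55 and 1.38 FPKM. In all 5 genes the agomir libraries were above the agomir NC libraries, and agomir replicate 3 was the highest, as in KCNMB3. With the group means removed, the correlations were between 0.904 and 0.955. The correlations of these 5 genes before that removal are the highest of all tested genes with a symbol. Those with and without the group means are high by that choice.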

How the data were processed

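The authors deposited FPKM values (fragments scaled by transcript length and by the mapped fragments of the library) for 23475 genes in 6 libraries. The submitters' processing notes name fastp, HISAT2 and StringTie and the build ARS-UCD1.2. Read counts and depth are unknown, and a search for whole-read steps over 1430 low genes found at most 7 in a bin of 0.002 log2 units. Between 16207 and 16360 genes were above 0 in a library.

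Genes were kept where their mean reached 0.5 FPKM, which left 12422, and log2(FPKM + 0.5) was fitted by group in limma 3.58.1 (R 4.3.3). Its moderated test was two-sided and used a variance trend, and p-values were adjusted by Benjamini-Hochberg over all 12422. The script was tested on simulated data. Members and lists were chosen with earlier results of these data known. The genes named are the 8 members, their listed relatives, the 5 highest potassium channel genes, the 3 highest calcium genes and regulators, genes of these lists at an unadjusted p under 0.05, the 5 genes most correlated with KCNMB3, the 2 nearest genes on each side, and those next to it in the order of rises. A result under this rule is not reported here. Gene order was taken from RefSeq on ARS-UCD2.0, where all 8 members matched by symbol, and no coordinates are given because the builds differ. The primers are from the study's supplement. The alternatives were other pseudocounts, filters, scalings, weights, a replicate block, a correction for gene span and each library left out.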

Additional observations from a re-analysis of the deposited data

How the results depend on the processing

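The log2 difference of KCNMB3, whose direction is fixed by its selection, lay between 0.40 and 1.23 in 16 alternatives, and the 2 that moved it by more than the spread between replicates were a pseudocount of 0.1 (1.00) and the ratio of means without a pseudocount (1.23). Both follow from its low FPKM. KCNMB3 was not in the fit at a mean of at least 1 FPKM, nor at a mean of at least 0.5 FPKM in each group, an alternative chosen after seeing the data. Without agomir replicate 3 its mean was 0.450 FPKM, and without agomir replicate 2 it was also just under the filter, so its values there are plain differences of means, and with each library left out they lay between 0.47 and 0.72. Its share of beta subunit FPKM differed by 8.74 (without agomir NC replicate 3) to 18.8 percentage points. With no fold threshold 1 potassium channel gene (KCNK12) and 1 calcium gene (ITPR1) were counted as higher, and these counts and those of lower genes and of other members past the adjusted threshold were 0 in every other alternative. The alternatives gave 135 values for 8 single genes, of which 133 had the same direction and the same side of the threshold as reported, and with a library left out KCNT2 lay between -0.0043 and 0.12 and PIK3CA between -0.063 and 0.063. The causes of these reversals, without agomir replicate 2 for KCNT2 and without agomir NC replicate 1 for PIK3CA, were not tested. Libraries with the same replicate number showed little shared deviation, with correlations of -0.051, 0.053 and 0.039. These values cannot tell if such libraries share a calf or a culture. With the number as a block the difference of KCNMB3 was 0.60, and no call changed. Depth is unknown, so values near 0 cannot be told from 0.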
